A study of Ovis aries and Bos taurus with 10 samples.

Results

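The cytosolic ribosomal proteins were followed over all arrays of a study on early follicle development in the sheep ovary. The members were the genes whose symbol in the annotation of the chip is RPL, RPS or RPLP followed by a number. After the number only a letter A, X, Y or L and further digits were allowed. RPSA was added, and the rule used no measured value to pick a gene. There were 67 such genes of 9155 genes with a symbol, 39 of the large subunit, 24 of the small subunit and 4 paralogs (RPL3L, RPL7L1, RPL26L1 and RPS27L). They held 94 of 24016 probe sets. For each gene the probe set with the highest mean on the captured samples was taken, so signals were compared between arrays for 1 probe set and never between genes. RPS4X, RPL10L, RPL22L1, RPL39L, RPLP1, RPS27A and RPL23A are not analysed here.

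The study captured oocytes and granulosa cells (GC) by laser microdissection from ovaries of newborn lambs under 1 day old, at the primordial, primary and secondary follicle stages. Each of these 6 samples was 1 array: oocytes as PDO, PMO and SECO and GC as PDG, PMG and SECG, pooled from 2 animals at the primordial stage, 4 at the primary stage and 2 at the secondary stage. Their RNA went through a double round of T7 amplification and Arcturus turbo labelling (protocol P3). The other 4 arrays held whole fetal ovary RNA: ovine RNA of 132 days post coitum labelled by P2 (double amplification, Affymetrix labelling), by P3 and by P1 (the standard Affymetrix protocol), and bovine RNA of 8 months post coitum labelled by P1. No genetic change or treatment is given for any group. All were hybridised to the same Affymetrix bovine array, and no group had a second array, so the spread between samples of a group is unknown and differences of single arrays carry no error. Signals are MAS 5.0 intensities scaled to a trimmed mean of 100 per array, and differences are of log2(signal + 20) unless said otherwise.

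The ribosome is built of a small subunit, which reads the mRNA, and a large subunit, which joins the amino acids, each made of ribosomal RNA and many proteins that are needed in about equal amounts. Their mRNAs are abundant in growing cells and share a terminal oligopyrimidine tract (TOP) at their start, through which nutrient and growth factor signals control their translation together. A growing oocyte stores ribosomes for the embryo, and the GC around it begin to multiply as the follicle leaves its resting state.

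RPL19 was 1 of 2 reference genes of the quantitative PCR in the study, beside beta-actin, and its primers are shown because results set against it inherit part of any difference in it. They are printed 5′ to 3′ and no part of them is singled out.
RPL19 forward: cacaagctgaaggcagacaa
RPL19 reverse: tgatgatttcctccttcttgg

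Ribosomal protein mRNAs were easily detected in both cell types. A probe set counted as detected when it lay among the brightest of an array, up to the percentage of present calls known for that array. The limit so set was between 45.8 and 74.2 on captured arrays and between 28.9 and 44.7 on fetal arrays. Of the 67 genes, 62 were detected on all 6 captured arrays, the same number on all 10 arrays, and 56 had a signal of at least 1000 on all 6. RPL37 and RPS19 were detected on 0 of the 6, and the remaining 65 were those compared between captured samples. RPS19, the gene most often mutated in Diamond-Blackfan anaemia in humans, gave 37.3, 49.2 and 33.2 on PDO, PMO and SECO and 28.6, 43.5 and 4.68 on PDG, PMG and SECG. All 6 were under the limits, although its product belongs to every ribosome. Its P1 signals were 4.5 in ovine and 3.7 in bovine fetal ovary, and its second probe set was not detected on a captured array.

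The markers of the captured cells separated in part. Of the 8 measured oocyte markers, 7, among them ZP3 of the egg coat, were detected on every captured array, and BMP15 on PMO alone. Their summed signal was 7735, 7920 and 2723 on PDO, PMO and SECO, against 3053, 5627 and 3448 on PDG, PMG and SECG, higher in oocytes at the primordial and primary stages and lower at the secondary stage. The summed GC markers came to 165, 405 and 382 in oocytes, against 292, 784 and 1728 in GC, higher in GC at every stage. FST, which binds activin, gave 15.2, 111 and 51.4 in oocytes, against 107, 410 and 776 in GC, and INHA, the alpha subunit of inhibin, gave 27.4, 105 and 62.6 in oocytes, against 36.7, 200.3 and 617 in GC. GATA4, detected on all 6 captured arrays, gave 82.4, 101.2 and 228.7 in oocytes, against 124.8, 88.7 and 262.9 in GC. It was thus higher in oocytes at the primary stage. The summed stroma markers (COL1A1, COL1A2, COL3A1, DCN and LUM) came to 15731, 4316 and 15645 on PDO, PMO and SECO, against 46999, 29415 and 12644 on PDG, PMG and SECG. Of the GC markers AMH, KITLG, FOXL2 and CYP19A1 were detected on none of the 6 arrays. HBB, a globin of red blood cells, gave 3838 on SECO, against 16.3 on PDO, 1.996 on PMO and 50.9 to 398 on the GC arrays. Of the 5 stroma markers 4 or 5 were detected on every captured array. The part of such cells in the results on ribosomal proteins was not tested. Fewer cells of a type and less RNA per cell cannot be told apart.

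Taken as a block, the ribosomal protein genes took up a similar share of the hybridisation signal on every array. The summed member signals were 9.29%, 10.6% and 12.1% of all signal on PDO, PMO and SECO, against 10.6%, 11.1% and 10.7% on PDG, PMG and SECG. The oocyte arrays stood in the order of the stages, while the GC arrays lay close together. Fetal ovary gave 9.20% with P2, 10.05% with P3, and 11.02% with P1 in sheep and 12.1% with P1 in cattle. Each array measured a single sample, so none of these shares has an error.

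**Figure D1:**
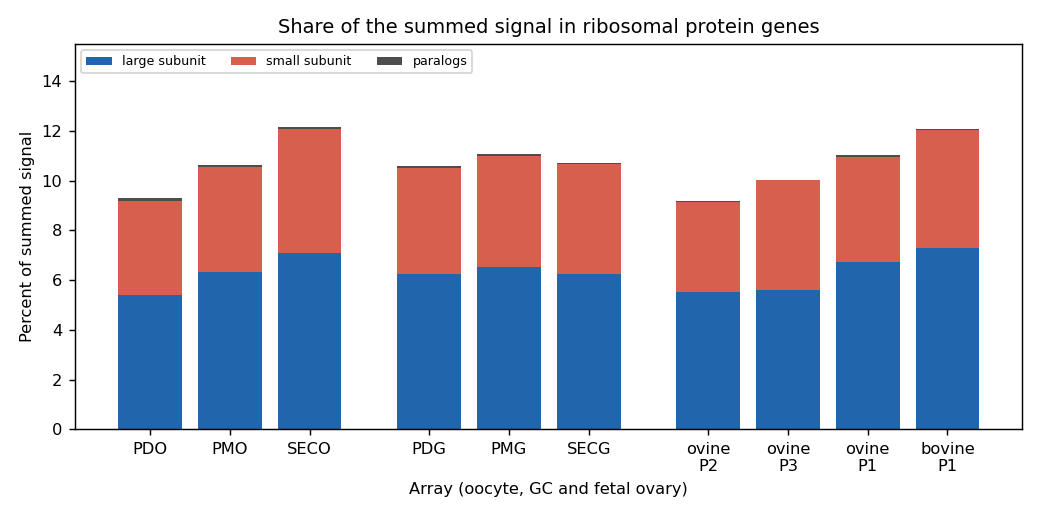
Share of the summed signal of each array taken by the large subunit genes, the small subunit genes and the 4 paralogs, as stacked bars in percent, 1 array a bar. PDO is the lowest of the captured arrays at 9.29% and SECO the highest at 12.1%.

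Between oocytes and GC the ribosomal protein genes as a group hardly differed. The median difference, oocyte minus GC over the 3 stages, was 0.00 for the 65 detected members, with 34 above and 31 below 0, against 0.05 for 6284 detected genes of all kinds. The members were also packed more tightly than other genes, the middle 50% spanning 0.31 on the log2 scale, against 0.66 for all genes. On the captured arrays 56 to 59 of the 67 members lay in the brightest 5% of probe sets, and the part of signal level in this spread was not tested. The large subunit had a median of -0.01 and the small subunit one of 0.02. With each array's median in place of the trimmed mean as the scale, all genes shifted by -0.10 and the median of the members became -0.11. A linear model in limma with terms for stage and compartment, which takes the stages as the replicates of a cell type, called 0 of the 65 members at an adjusted p of 0.05 (Benjamini-Hochberg), as it called 0% of the 11642 probe sets tested. At an unadjusted p under 0.05 the numbers were 0 of 65 members and 11.1% of all probe sets, and the lowest adjusted p of a member was 0.489, for RPS26. The standard error of a member's difference lay between 0.298 and 0.420.

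**Figure D2:**
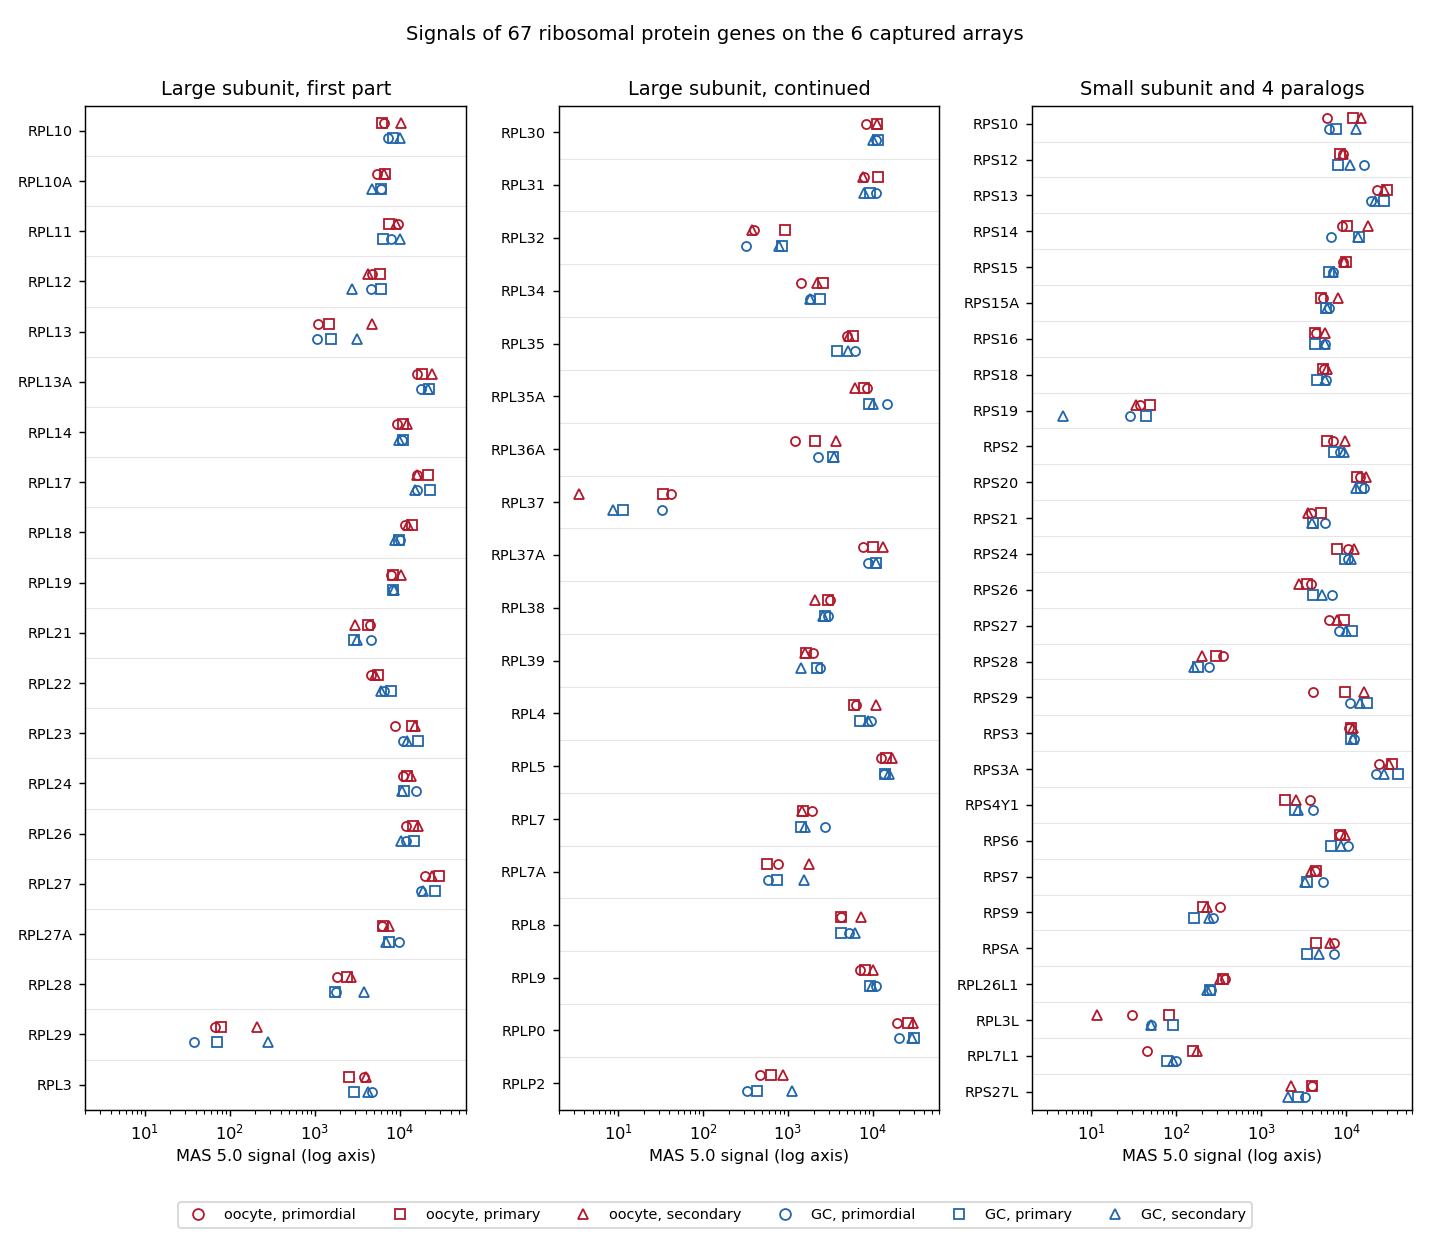
MAS 5.0 signal on a log axis of each of the 67 genes on the captured arrays, oocytes in red above GC in blue in each row, with 1 symbol per stage and 1 array a point. Of the 67 genes, 56 have all 6 signals at 1000 or more, and RPL37 and RPS19 lie under the detection limits on every captured array.

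In the probe sets taken, the 3 genes that mark the group showed this closeness. Signals of a cell type are given as primordial, primary and secondary. RPL19, in the large subunit, gave 7796, 8350 and 10422 on PDO, PMO and SECO, against 8232, 8263 and 8603 on PDG, PMG and SECG. The groups overlapped and the mean difference was 0.07 ± 0.30 (standard error of the model), with a sign that turned to -0.05 when arrays were scaled to their median. RPS3A of the small subunit gave 24129, 34475 and 31487 in oocytes, against 22180, 40151 and 27881 in GC, a difference of 0.03, or of -0.09 with median scaling. In both cell types the primary array was the highest. RPLP0, the base of the stalk that recruits the elongation factors, gave 19168, 25424 and 29561 in oocytes, against 20364, 29915 and 29001 in GC. Its difference was -0.10, and the primordial array was the lowest in both cell types. Over the 3 detected probe sets of RPLP0 the difference ran between -0.70 and -0.10.

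With arrays scaled to the trimmed mean, differences with 1 sign at all 3 stages were less frequent among ribosomal proteins than among all genes, and with median scaling those below 0 were more frequent. Neither difference in frequency was tested. Oocytes gave the higher signal at every stage for 7 of 65 members, against 19.9% of all genes, and the lower signal at every stage for 7 of 65, against 16.5%. With median scaling the first count was 6, against 14.2% of all genes, and the second 23, or 35.4%, against 21.3%. Signals that did not overlap between the cell types were found for 3 members with oocytes above GC, where all genes gave 8.04%, and for 3 members with oocytes below GC, where all genes gave 7.18%.

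On the oocyte side of that list stood RPS15, of the head of the small subunit close to the decoding site. RPS15 gave 9174, 9945 and 9468 on PDO, PMO and SECO, against 7023, 6226 and 6888 on PDG, PMG and SECG. All oocyte signals were above all GC signals, with a mean difference of 0.51. RPL26L1, a close copy of RPL26, gave 379, 351 and 328 in oocytes, against 254, 248 and 229 in GC, with no overlap and a difference of 0.50. Its parent RPL26, which lies at the exit of the tunnel for the new protein, gave 11725, 14340 and 16165 in oocytes, against 11697, 14786 and 10208 in GC, with overlap and a difference of 0.21. RPL18, a large subunit protein, gave 11385, 14017 and 12624 in oocytes, against 10085, 9732 and 8897 in GC, again with no overlap and a difference of 0.40. RPS28, of the small subunit, was higher in oocytes at each stage, with 357, 294 and 199 in oocytes, against 244, 180 and 161 in GC, but its SECO signal fell within the range of the GC arrays. RPS27L, a copy of RPS27 that p53 induces in human cells, gave 3906, 3900 and 2244 in oocytes, against 3272, 2687 and 2063 in GC, a difference of 0.30. A second probe set of RPS27L gave -0.70, and the mean of both gave -0.20. RPL27 and RPS13 were the other members with 1 sign, at 0.21 and 0.23.

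On the GC side stood RPS26, which lines the channel where the mRNA leaves the small subunit. RPS26 gave 3805, 3487 and 2741 on PDO, PMO and SECO, against 6776, 4050 and 5161 on PDG, PMG and SECG. No oocyte signal reached a GC signal, and the difference of -0.65 ± 0.32 had an adjusted p of 0.489 in limma. RPL35A, mutated in some patients with Diamond-Blackfan anaemia, gave 8574, 7859 and 6128 in oocytes, against 14407, 9077 and 9990 in GC, a difference of -0.55 with no overlap. RPL22, which mouse cells can do without for most translation, gave 4599, 5489 and 5107 in oocytes, against 6548, 7803 and 5930 in GC, a difference of -0.41 with no overlap. RPS27 gave 6206, 9464 and 7849 in oocytes, against 8169, 11564 and 9832 in GC, a difference of -0.34 in which the GC sample of each stage was above its oocyte sample while the ranges overlapped. RPL3L, the copy of RPL3 used in striated muscle, gave 29.8, 82.5 and 11.8 in oocytes, against 49.99, 92.6 and 50.3 in GC. The PDO and SECO signals of RPL3L were under the limits of 52.2 and 67.6, and no fold is given for those stages since the GC signals were lower than those limits. RPL3 and the gene annotated as RPS4Y1 completed the list at -0.19 and -0.20. The sheep annotation holds RPS4X, a protein of the small subunit coded on the X chromosome, and no RPS4Y1.

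Genes of the other roles followed the block. At the stalk, RPLP2 gave 471, 638 and 872 in oocytes, against 331, 432 and 1101 in GC, RPL12 had a difference of 0.21 and RPL10, which joins late in assembly near the catalytic centre, one of -0.20. RPL5 and RPL11, which form a particle with the 5S RNA that, when free, binds MDM2 and so raises p53, had differences of 0.01 and 0.12. RPS2 and RPS3, at the entry of the mRNA channel, had -0.17 and -0.06. RPS6, the protein phosphorylated by S6 kinases after growth signals, gave 8328, 8534 and 9585 in oocytes, against 10445, 6609 and 8612 in GC, a difference of 0.07. RPL13A, which human macrophages release from the ribosome to silence inflammatory mRNAs, had -0.09. RPS24, another gene of Diamond-Blackfan anaemia, had -0.05, and RPL35 at the tunnel exit had 0.12. All of these had overlapping oocyte and GC signals.

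The near zero median covered unlike stages. At the primordial stage the oocyte gave the lower signal for 44 of 65 members, with a median of -0.17 against 0.04 for all genes. At the primary stage the median was 0.01, against 0.04 for all genes. At the secondary stage the oocyte gave the higher signal for 46 of 65 members, with a median of 0.14 against 0.04. The 2 subunits ran together, with -0.17 for the large and -0.15 for the small subunit at the primordial stage, and 0.12 and 0.15 at the secondary stage. Scaled to the array medians, the primordial value was -0.22 and the secondary value turned to -0.16, where all genes stood at -0.21, so that the members remained below all genes at the primordial stage and above them at the secondary stage. With quantile normalization the values were -0.20 and 0.15. Each stage rests on 1 pair of arrays, and the difference between stages was not tested.

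**Figure D3:**
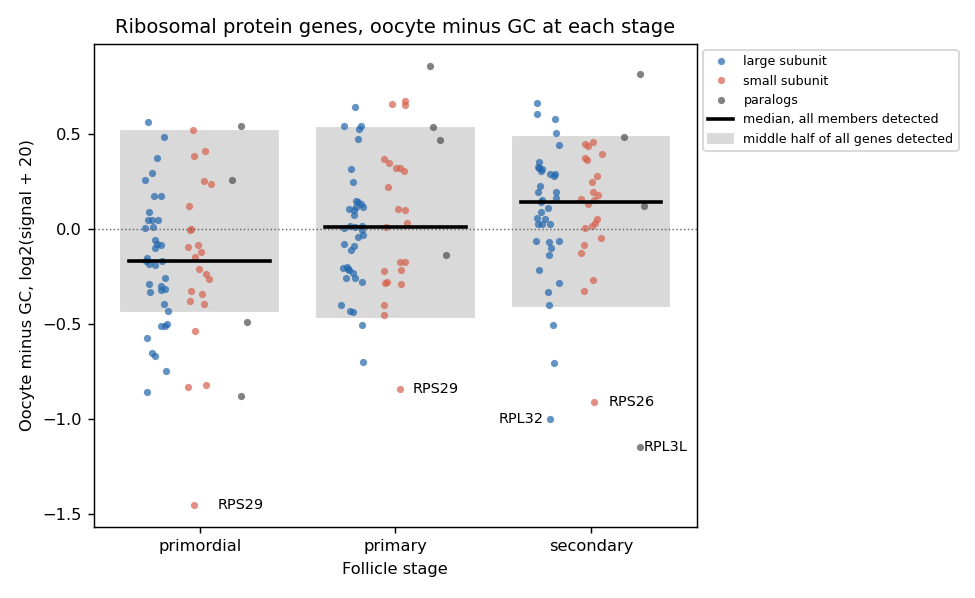
Oocyte minus GC in log2(signal + 20) for each of the 65 detected genes at each stage, by subunit, with the median of the members as a black line and the middle 50% of all 6284 detected genes as a grey band. The medians are -0.17, 0.01 and 0.14, and RPS29 at the primordial stage is the lowest point at -1.45.

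RPS29, a small subunit protein with a zinc finger, had the largest difference of any member. It gave 4067 on PDO, 9655 on PMO and 16025 on SECO, against 11149, 17319 and 14348 on PDG, PMG and SECG. The difference was -1.45 at the primordial, -0.84 at the primary and 0.16 at the secondary stage, and the mean of -0.71 ± 0.38 had an adjusted p of 0.524 in limma. RPL36A, next to the exit site of the tRNA, had a like order with 1221, 2096 and 3666 in oocytes, against 2227, 3415 and 3445 in GC. RPL32 ran the other way, with 402, 923 and 378 in oocytes, against 324, 851 and 776 in GC, and a difference of -1.001 at the secondary stage. RPL7L1, a nucleolar copy of RPL7, gave 45.1, 158 and 177 in oocytes, against 99.9, 78.6 and 92.0 in GC. Since PDO lay under its limit, GC were at least 1.91-fold higher at the primordial stage, while at the later stages oocytes were higher by 0.86 and 0.81 on the log2 scale.

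Across the stages, a few ribosomal proteins gave more signal in secondary than in primordial follicles in both cell types, while the group as a whole moved little. The median of the members, secondary minus primordial over both compartments, was 0.14, against 0.04 for all genes. In oocytes alone it was 0.25, with 45 of 65 members above 0, against 0.07 for all genes, and in GC alone it was -0.07, with 26 above 0, against 0.00 for all genes. With median scaling the oocyte value turned to -0.03, where all genes were at -0.16, and the GC value was -0.11. limma called 0 of 65 members and 0% of probe sets for this contrast, and 8 members had an unadjusted p under 0.05, against 11.4% of all probe sets. Signals at least 2-fold higher in both compartments were found for 5 of 65 members (RPL13, RPL29, RPL7A, RPS10 and RPS14), against 3.84% of all genes, and at least 2-fold lower for 0 of 65, against 1.93%. A share of 5 members in 65 is 7.69%.

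RPL13, a large subunit protein, gave 1092, 1465 and 4728 on PDO, PMO and SECO, and 1058, 1559 and 3167 on PDG, PMG and SECG. Both cell types had their lowest signal at the primordial and their highest at the secondary stage, and the difference of secondary and primordial was 1.83 ± 0.39 with an adjusted p of 0.238. RPL29, a small basic protein that also binds heparin, gave 66.2, 77.8 and 209.9 in oocytes, and in GC it gave 38.3, 71.1 and 284. The PDG and PMG signals were under the limits of 45.8 and 72.1, so the GC of secondary follicles were at least 6.2-fold above those of primordial follicles. The fit used the PDG signal as measured, and its adjusted p for RPL29 was 0.238. RPL7A gave 768, 558 and 1757 in oocytes and 588, 741 and 1536 in GC, a difference of 1.26. In both cell types the secondary array stood apart from the other two. RPLP2, an acidic protein of the stalk, had a difference of 1.27, with 0.86 in oocytes and 1.67 in GC.

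RPS10, which is ubiquitinated when ribosomes stall, gave 5906, 11904 and 14975 in oocytes and 6317, 7560 and 13074 in GC, a difference of 1.19. RPS14, deleted on 1 chromosome in the 5q- syndrome of humans, gave 8813, 10227 and 17964 in oocytes and 6628, 14027 and 13670 in GC, a difference of 1.03. RPS29 and RPL36A had differences of 1.17 and 1.10, with 1.97 and 1.57 in oocytes beside 0.36 and 0.62 in GC. The model pools both compartments and called 0 of these genes. With an added constant of 50 it called RPL13 (adjusted p = 0.0472) and 0.318% of the 11642 probe sets, and with a trend of the variance on intensity RPL13 (0.0371), RPS10 (0.047) and 0.576% of the probe sets. Over the limma settings that kept the 6 arrays and fitted single probe sets, the adjusted p ran between 0.0371 and 0.432 for RPL13 and between 0.047 and 0.554 for RPS10. The setting with the mean of a gene's probe sets is not in these ranges.

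**Figure D4:**
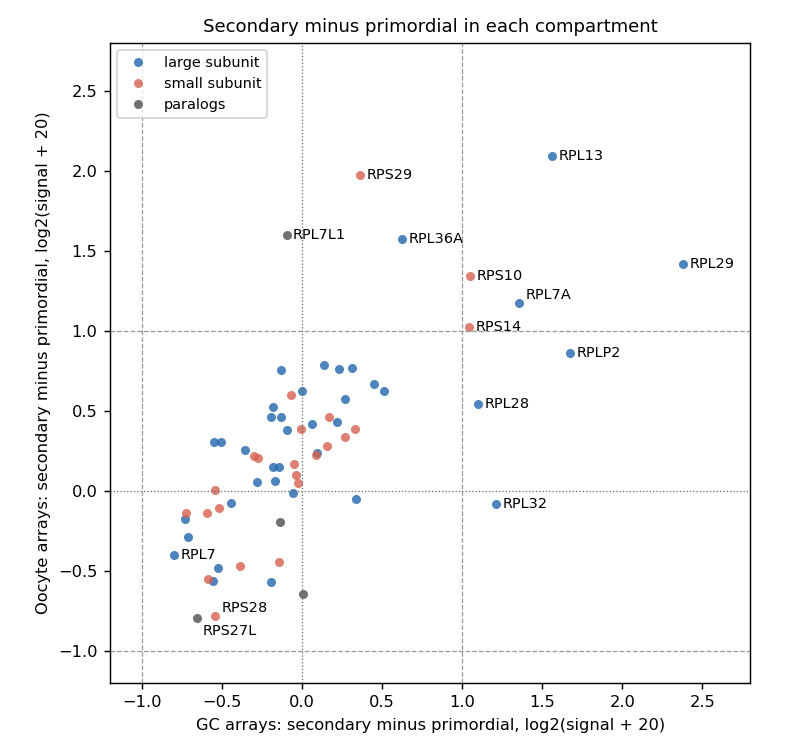
Secondary minus primordial in log2(signal + 20) for each of the 65 detected genes, in oocytes (vertical axis) and in GC (horizontal axis), with dashed lines at a 2-fold difference. RPL13, RPL29, RPL7A, RPS10 and RPS14 lie beyond 2-fold in both, RPS29 only on the oocyte axis (1.97 against 0.36) and RPL32 only on the GC axis (-0.09 against 1.21).

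In the other direction the differences were smaller. RPS27L had -0.73, with 3906, 3900 and 2244 on PDO, PMO and SECO and 3272, 2687 and 2063 on PDG, PMG and SECG. RPS28 had -0.66, with 357, 294 and 199 in oocytes and 244, 180 and 161 in GC, and both cell types had their lowest signal at the secondary stage. RPL7, a neighbour of the 5S RNA, and RPS4Y1 had -0.60 and -0.57. The role members RPL5, RPL11, RPS6, RPS2, RPS3 and RPS15 had 0.32, 0.14, -0.04, 0.31, 0.06 and 0.01.

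Between the primary and the primordial stage the median of the members was 0.00, as for all genes. The large subunit had a median of 0.14, with 24 of 38 members above 0, and the small subunit one of -0.20, with 7 of 23 above 0. With median scaling these were -0.21 and -0.54, where all genes stood at -0.28, and with quantile normalization 0.07 and -0.14. limma called 0 members and 0% of probe sets for this contrast, and likewise 0 members and 0% of probe sets for secondary against primary. At least 2-fold higher in both compartments was 1 member, against 1.19% of all genes, and at least 2-fold lower were 0, against 1.27%. The 1 member was RPL32, higher by 1.16 in oocytes and 1.34 in GC. RPSA, which in its free form binds laminin, had -0.88, with 7150 on PDO and 4357 on PMO, and 7183 on PDG and 3483 on PMG.

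In fetal ovary labelled by the same protocol, ovine and bovine RNA gave much the same median ribosomal protein signal in the probe sets taken. Those were the brightest of each gene on the captured arrays, which held sheep RNA. Over all probe sets of a gene, ovine minus bovine ran between -2.72 and 0.49 for RPS3 and between -2.62 and 0.83 for RPS12. For RPS15A it ran between -0.17 and 0.28. The median, ovine minus bovine, was -0.08 over 65 members detected in either species, against 0.05 for 7097 genes. With median scaling it was 0.27, where all genes stood at 0.34, and with quantile normalization -0.04, where they stood at 0.14, so that the members were below all genes in each case. Ovine RNA was at least 2-fold higher for 0 of 65 members, against 13.3% of all genes, and at least 2-fold lower for 8 of 65, against 17.7%. The 8 were RPL7, RPL7A, RPL7L1, RPL26L1, RPL29, RPL31, RPS26 and RPS28. The probes were designed on cattle transcripts, and a lower level in sheep and a poorer match of the probes to the sheep transcript cannot be told apart, nor can the species and the ages of the fetuses.

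RPL7L1 differed most, with 21.8 in ovine RNA, under the limit of 32.1, and 383 in bovine RNA, so that the bovine signal was at least 11.9-fold higher. RPL7A gave 1709 in ovine and 6346 in bovine RNA, a difference of -1.88. RPS26 gave 2917 in ovine and 10622 in bovine RNA, a difference of -1.86. RPS28 and RPL29 followed with -1.46 and -1.32. In the probe sets taken, the largest differences in the other direction were under 2-fold. RPS27L gave 1677 in ovine and 934.5 in bovine RNA, a difference of 0.83, and its second probe set gave 1.15. RPL24, which joins the large subunit late in its assembly, gave 10021 in ovine and 5806 in bovine RNA, a difference of 0.79. A second probe set of RPL24 had the opposite sign, at -0.34. RPL37, RPL19 and RPL14 had 0.78, 0.72 and 0.48, and a second probe set of RPL19 had -0.36. Of the 2 marker genes not among these, RPS3A had -0.19 and RPLP0 -0.02. Over the 3 probe sets of RPLP0 the difference ran between -0.77 and 0.42.

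The ribosomal protein genes spread most widely between labelling protocols. The middle 50% of the members spanned 1.49 for P2 minus P1 and 1.27 for P3 minus P1, beside 0.62 for ovine minus bovine and 0.68 for secondary minus primordial. For all genes the widths were 1.29, 1.43, 1.36 and 0.84. The ovine fetal RNA was the same tissue and age in the 3 arrays. Relative to P1, the median of 66 detected members was -0.39 with P2, against 0.04 for 6663 genes, and -0.14 with P3, against -0.02 for all genes. Both comparisons share the P1 array. With median scaling they were -0.07 and 0.20, where all genes stood at 0.32 and 0.26, and with quantile normalization -0.34 and -0.48, where all genes stood at 0.13 and 0.12, so that the members stayed below all genes. The large subunit was lower than the small subunit in both. Its median was -0.62 with P2 and -0.33 with P3, where the small subunit had -0.27 with P2 and 0.41 with P3. This difference between subunits was not tested. Under median scaling the P3 medians were 0.01 for the large and 0.75 for the small subunit.

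Signals at least 2-fold below P1 under both P2 and P3 were found for 12 of 66 members, or 18.2%, against 11.6% of all genes, and at least 2-fold above P1 under both for 0 of 66, against 8.25%. RPL37 counts among the 12 by measured signals under the detection limits. With such signals set at their limits, a choice made after the values were seen, 11 members were left, or 16.7%, against 9.05% of all genes. With median scaling the count was 7 members, or 10.6%, against 8.22%. With quantile normalization it was 16 members, or 24.2%, against 10.2%. Of the 12, 9 were large subunit genes (RPL7, RPL21, RPL29, RPL32, RPL34, RPL37, RPL38, RPL39 and RPLP2) and 3 small subunit genes (RPS7, RPS9 and RPS16). RPL7, RPL21, RPL32 and RPS7 had more than 1 probe set, detected or not. Over these, P3 minus P1 ran between -1.32 and 0.18 for RPL7 and between -2.47 and -0.36 for RPL21. It ran between -3.00 and 1.00 for RPL32 and between -1.29 and 1.90 for RPS7. RPS9, a protein that shapes the decoding of the mRNA, gave 248 with P2, 444 with P3 and 3407 with P1. RPL32 gave 370.1 with P2, 585.5 with P3 and 4827 with P1. Both P2 and P3 were below P1 by 2.89 or more on the log2 scale for RPS9 and by 3.00 or more for RPL32. RPL34 gave 1041 with P2, 1126 with P3 and 6475 with P1. RPL21 gave 868 with P2, 1589 with P3 and 8914 with P1. RPL29 gave 400.6 with P2, 288.5 with P3 and 1979 with P1. That no amplified sample of these genes reached 50% of the P1 signal follows from the 2-fold rule that picked them. RPL39, which lines the exit tunnel, gave 1265 with P2, 1904 with P3 and 6787 with P1. RPL38, which mouse embryos need to translate some Hox mRNAs, gave 3074 with P2, 2132 with P3 and 6206 with P1. RPL37 was detected with P1 alone among the ovine arrays, at 88.7, at least 1.98-fold above P2 and at least 2.10-fold above P3.

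**Figure D5:**
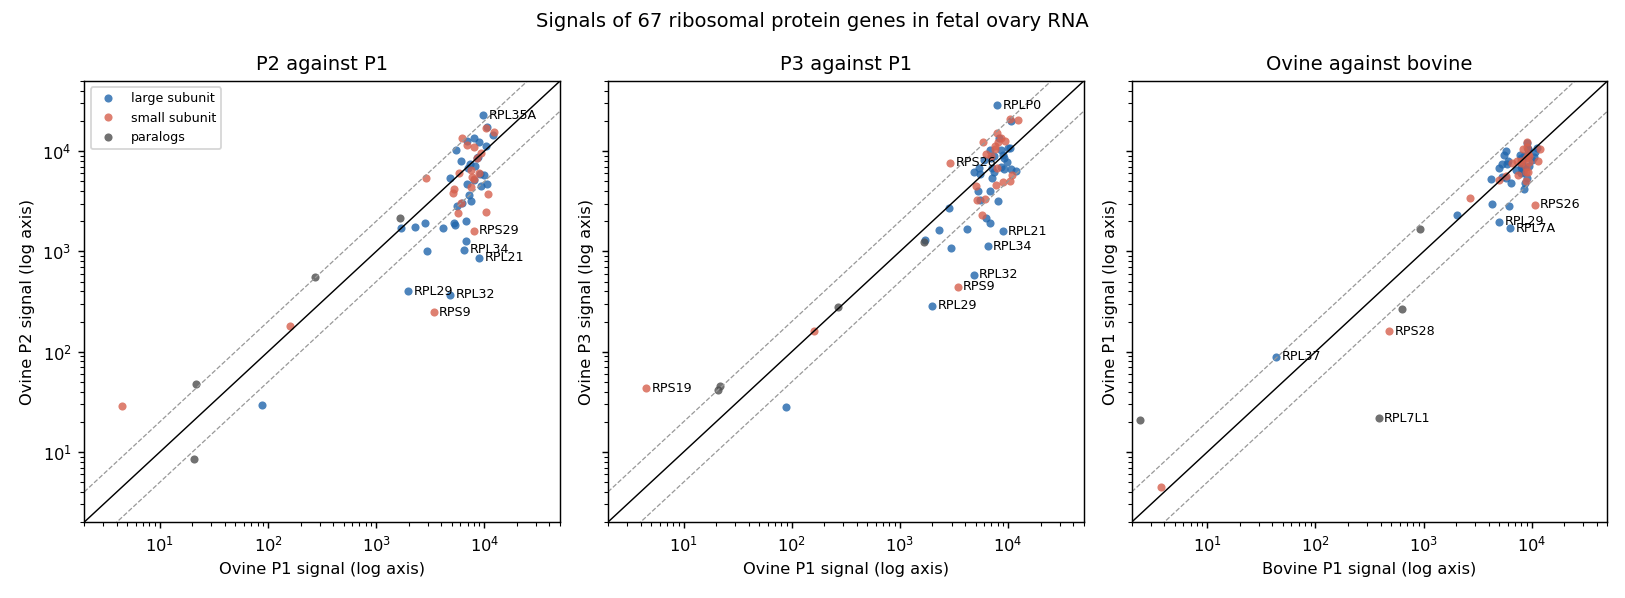
Signals of the 67 genes in fetal ovary on log axes, with P2 against P1 and P3 against P1 in ovine RNA, and ovine against bovine RNA under P1, 1 gene a point. The solid line marks equal signals and the dashed lines a 2-fold difference; RPS9 (444 with P3, 3407 with P1) and RPLP0 (28616 with P3, 7977 with P1) lie on either side.

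A smaller set gave more signal after amplification in the probe sets taken. Those were the brightest of each gene on the captured arrays, all labelled by P3. RPLP0 gave 13464 with P2 and 28616 with P3, against 7977 with P1, differences of 0.75 and 1.84. RPS26 gave 5404 with P2 and 7678 with P3, against 2917 with P1. RPSA gave 6074 with P2 and 12260 with P3, against 5829 with P1. For all of these P3 was the highest. RPS3A gave 17092 with P2 and 20778 with P3, against 10392 with P1, a difference of 1.00 with P3. RPL19, with 4530 under P2 and 8590 under P3, against 9230 under P1, was -1.02 with P2 and -0.10 with P3. RPS19 was detected with P3 alone among these arrays, at 43.4, close to the limit of 42.3. RPL35A gave 22758 with P2, 7808 with P3 and 9791 with P1, and RPS29 gave 1606 with P2, 6735 with P3 and 7958 with P1, so that for these genes P2 and P3 differed by more than 2-fold.

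The captured samples, all labelled by P3, are set beside these values without a comparison, since tissue and age differed too. RPS9 gave between 206 and 323 in oocytes and between 163 and 268 in GC. RPL32 gave between 378 and 923 in oocytes and between 324 and 851 in GC. For RPL34 the signals lay between 1434 and 2558 in oocytes and between 1791 and 2358 in GC. Those of RPL21 lay between 3002 and 4457 in oocytes and between 2917 and 4634 in GC. Those of RPL29 lay between 66.2 and 209.9 in oocytes and between 38.3 and 283.7 in GC.

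Several probe sets of 1 gene did not always give the same answer. Of the 67 genes 18 had more than 1 probe set, and for 14 of them at least 2 were detected on a captured array. The sign of oocyte minus GC differed between the probe sets of 4 of these 14, RPL9, RPS12, RPS27L and RPS4Y1. RPL9 ran between -0.27 and 0.56, and RPS12 between -0.34 and 0.14. Probe sets with the same sign could also differ in size. RPL24 ran between -1.04 and -0.01, RPLP0 between -0.70 and -0.10 and RPS3 between -0.67 and -0.06. The protocols split the probe sets further apart. A probe set of RPL10 gave 10274 with P3 and 8647 with P1, a difference of 0.25, while a second gave 1039 with P3 and 9856 with P1, a difference of -3.22. The 3 probe sets of RPLP0 ran between -0.46 and 1.84 for P3 minus P1. The brightest one of RPLP0 is of a kind (suffix _x_at) that may also bind other transcripts, the only one of that kind among the 67.

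Other genes of the translation machinery were set beside the group. Of the 15 measured genes whose mRNA also carries a TOP, the median of oocyte minus GC was -0.05, with 1 higher in oocytes at all stages (EEF1B2) and 2 lower (EEF2 and EIF3E). EEF2, the factor that moves the ribosome along, gave 450.04, 429.6 and 539.6 on PDO, PMO and SECO, against 666, 453 and 875 on PDG, PMG and SECG. FAU, whose product contains the small subunit protein RPS30, gave 2323, 3194 and 2272 in oocytes, against 2402, 2237 and 2825 in GC, and 1804 with P2 and 2370 with P3, against 7231 with P1. RACK1, a signalling scaffold on the small subunit, gave 9571, 8886 and 11849 in oocytes, against 9619, 9541 and 9560 in GC. The mitochondrial ribosomal proteins, which build the separate ribosome of that organelle, differed from the cytosolic ones in their median. It was 0.32 over 60 detected genes, 45 of them above 0, where 3378 of 6284 genes of all kinds were above 0. At the primordial, primary and secondary stages it was 0.33, 0.40 and 0.10, beside -0.17, 0.01 and 0.14 for the cytosolic members. All genes had 0.04 at each stage. The mitochondrial medians were not computed under another scaling.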

How the data were processed

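Signals of 10 Affymetrix bovine arrays were analysed, 1 array per group. Per the labels, the authors made MAS 5.0 signal intensities in GCOS (versions not given in the sources used here), deposited on a linear scale, scaled to 100 without further normalization. The 112 controls were left out. Genes were named through the platform annotation, which gave 13292 probe sets 1 symbol, and 64 of the 67 members have that symbol in the sheep RefSeq table (assembly ARS-UI_Ramb_v3.0). Detection used the study's percentages of present calls. Log2(signal + 20) was fitted for 11642 probe sets, each detected on 1 or more of the 6 captured arrays, in limma 3.58.1 (R 4.3.3) with stage and compartment, 2 residual and 5.43 prior degrees of freedom, tested on simulated data first. Standard errors are those of this fit. Fetal arrays gave differences without a test. A gene under its limit on the dimmer array is given as a bound, the brighter signal over that limit. The members and lists were chosen with earlier results of these data known. Genes were named as markers, by role, or as the largest differences of a comparison with 1 sign throughout (5 in each direction, or 4 between stages), and further genes after their values were seen. Alternatives were added constants of 1 and 50, median scaling, quantile normalization, other filters, the mean of a gene's probe sets, each stage left out, and other models. The number of arrays limits the precision. Summaries were made in Python 3.11.15.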

Additional observations from a re-analysis of the deposited data

Results flagged for a closer look

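The median oocyte minus GC of the members had opposite signs at the secondary (0.14) and the primordial stage (-0.17), a gap of 0.31. RPS29 had 0.16 at the secondary and -1.45 at the primordial stage, a gap of 1.61. RPL7L1 had 0.81 and -0.88, a gap of 1.69, with signals of 177 on SECO and 45.1 on PDO, the second under the detection limit. RPL32 had -1.001 at the secondary and 0.30 at the primordial stage, a gap of -1.30. These were singled out because the oocyte and GC arrays of 1 stage differed in the opposite direction from those of another, by 1 or more on the log2 scale for single genes. Each rests on 1 array per cell type and stage, and the differences between stages were not tested.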

How the results depend on the processing

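The model between cell types paired the oocyte and GC arrays of a stage through its stage term, and without that term it called 0 members as well. The labels give no replicate numbers that could pair arrays otherwise. Of 92 values of the whole group under another setting, 73 stayed as they were. For this, a median of captured arrays had to stay within the spread of stages or compartments, and a count within 1.5 times. A median of fetal arrays had to be equal at 2 decimals. Of 244 values of named genes, 238 kept their sign, and the 6 that did not were RPL19 (-0.048 with median scaling, -0.032 without the secondary arrays), RPS3A (-0.093 with median scaling, -0.022 without the primordial and -0.049 without the secondary arrays) and RPS27L (-0.20 with the mean of its probe sets). With each stage left out in turn RPL19 ran between -0.032 and 0.146 and RPS3A between -0.049 and 0.148. With median scaling the members lower in oocytes at all stages numbered 23 in place of 7, and the medians were -0.34 for primary minus primordial, 0.27 for ovine minus bovine, -0.070 for P2 minus P1 and 0.20 for P3 minus P1, and 7 members in place of 12 were at least 2-fold lower with both P2 and P3 than with P1. With quantile normalization the last 3 medians were -0.036, -0.34 and -0.48, and with the mean of the probe sets -0.17, -0.23 and -0.074. Quantile normalization gave 16 members at least 2-fold lower with both P2 and P3 than with P1. The cause was not tested, beyond the shift of all genes that median scaling brings by its construction. The added constant of 50 gave 1 member called between stages and the variance trend 2, against 0. The variance trend was applied to the contrasts with the primordial stage and not to secondary against primary. Leaving out the arrays of 1 stage gave 14 to 23 members higher and 7 to 23 lower in oocytes at all remaining stages, since fewer stages had to share a sign, with 23 higher without the primordial and 23 lower without the secondary arrays. The share of all genes with a stage left out was not computed, so these counts cannot be read as high or low. The number of members called between cell types stayed at 0 under every setting run. Of all probe sets, the variance trend called 0.0859% of 11642 between cell types, and each other setting called 0%.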
